A study of Mus musculus with 2 samples.

Results

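Among CD45+ cells of MC38 tumors, 258 macrophage-like cells carried transcripts of at least 3 of the 6 genes *Serpinb2*, *Il6*, *Ptges*, *Procr*, *Nos2* and *F3*. They were picked by their own counts of unique molecular identifiers (UMIs, each standing for 1 captured mRNA molecule). A cell also needed at least 5 UMIs of *Lyz2*, the lysozyme gene of myeloid cells. It had to be without a UMI of the T cell receptor genes *Cd3d*, *Cd3e* and *Cd3g*, and to hold fewer than 3 UMIs of *Cbr2*, *Folr2* and *Fcrls* together, genes of resident-type macrophages. The 258 selected cells were found among 9911 cells within the quality limits, out of 20726 putative cells in the capture. Of the 9911, 7129 met the conditions on *Lyz2*, the CD3 genes and *Cbr2*, *Folr2* and *Fcrls*, and these are called gate cells. The 6871 gate cells with 0, 1 or 2 of the 6 genes are called other gate cells and serve for comparison. Because the levels of the 6 genes chose the cells, every contrast of selected with other gate cells is a description.

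Macrophages that meet microbial products, debris of dying cells or cytokines switch on inflammatory genes through NF-kB, among them the cytokine *Il6* and the inducible nitric oxide synthase *Nos2*. In poorly perfused regions of a tumor, low oxygen stabilizes hypoxia-inducible factors, which raise genes of glycolysis, glucose uptake and vessel growth. Oxidants and free heme act through NRF2, whose targets include the heme-degrading enzyme *Hmox1* and genes for iron storage and glutathione.

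The study implanted MC38 colon carcinoma cells under the skin of female C57BL/6 mice aged 6 to 8 weeks. The control group was given vehicle and the telmisartan-treated group 5 mg/kg telmisartan, by the intragastric route every day from implantation until tumors were taken on day 13. Telmisartan blocks the angiotensin II receptor AGTR1 and partly activates PPARG. Live CD45+ cells of 5 mice per group were pooled by sorting, marked with Sample Tag 1 (control) or 2 (telmisartan), and loaded together into 1 BD Rhapsody capture. Each group was thus 1 pool, so mice cannot be told apart, and the tumors grew under the skin and not in the colon.

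The gene counts and the Sample Tag reads were 2 tables of the same 20726 cells. A cell was given to the group whose tag held at least 75% of at least 10 tag reads, and was kept with 150 to 5000 genes and at most 20% mitochondrial UMIs, which left 5078 control and 4833 telmisartan cells. The selected cells numbered 132 in the control group, with 1430671 UMIs, and 126 in the telmisartan-treated group, with 1147071 UMIs. Their median depth was 9977 UMIs and 2731.5 genes per cell in the control group and 8582.5 UMIs and 2550.5 genes in the telmisartan-treated group. In the other gate cells, the median was 9339 UMIs in control and 6936 in telmisartan. Levels were therefore scaled to 1000000 UMIs of the set of cells they were summed over (CPM). With 1 pool per group no test between groups was possible. Intervals in brackets are exact 95% intervals (Poisson for CPM, Clopper-Pearson for shares, conditional binomial for log2 ratios) that cover counting error only. Variation from mouse to mouse and from 1 pool to the other lies outside them.

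The share of selected cells was near equal in the groups before depth was made equal. They made up 3.53% [2.96 to 4.17] of control gate cells and 3.72% [3.11 to 4.41] of telmisartan gate cells, or 2.60% and 2.61% of all kept cells. A cell with few UMIs has fewer chances to show 3 of the genes, and telmisartan gate cells were shallower. After every gate cell was thinned to 2000 UMIs, 32 of 3622 control cells (0.883% [0.605 to 1.24]) and 40 of 3252 telmisartan cells (1.23% [0.880 to 1.67]) still showed at least 3 of the genes, while 117 and 138 cells were too shallow to be thinned. The intervals overlapped before and after thinning.

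Most gate cells lay far from the limit of 3 genes, and few lay well past it. In the control group 1980 gate cells had a UMI of none of the 6 genes, 1223 of 1, 404 of 2, 99 of 3, 28 of 4, 5 of 5 and 0 of 6. In the telmisartan-treated group these numbers were 1945, 1018, 301, 91, 25, 8 and 2. The 190 cells just inside the limit, with exactly 3 genes, had a median depth of 9997 UMIs in control and 9339 in telmisartan. The 705 cells just outside it, with 2 genes, had 11107.5 and 7653, so the order of the depths differed between the groups. *Nos2* stood at 857 CPM in control and 800.2 in telmisartan cells with 2 genes, and *Il6* at 58.8 and 119 CPM.

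**Figure D1:**
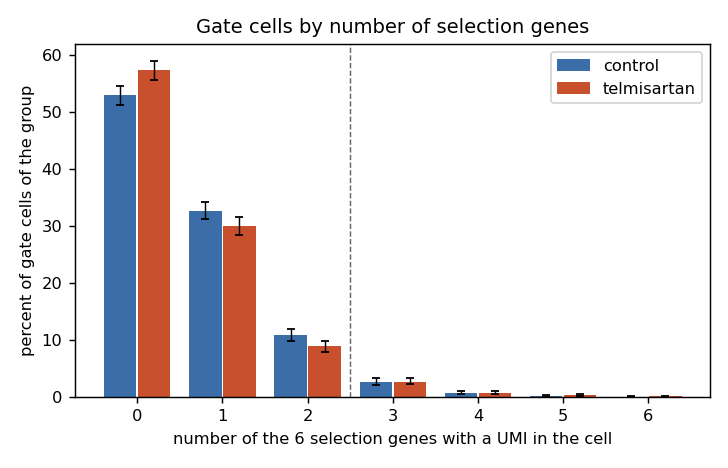
Gate cells of each group by how many of the 6 selection genes had a UMI, as percent of the gate cells of that group. Bars are shares, black lines their exact 95% Clopper-Pearson intervals, and the dashed line is the limit of the selection. The bars fall from 53.0% (control) and 57.4% (telmisartan) at 0 genes to 2.65% and 2.68% at 3 genes.

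The macrophage label was checked against 10 identity genes. All 10 had UMIs in the selected cells of both groups, with *Lyz2* in every cell by the rule, the endotoxin co-receptor *Cd14* in 132 of 132 control and 125 of 126 telmisartan cells, and the lysosomal *Cd68* in 125 and 121. Other members were less frequent. The receptor gene *Adgre1*, which encodes F4/80, had a UMI in 47 and 49 cells, and the efferocytosis receptor *Mertk* in 42 and 23. Against other gate cells, 3 of the 9 genes other than *Lyz2* were higher and 6 lower, 0 of them by 2-fold, with a median log2 ratio of -0.33. Over 9898 genes with at least 200 UMIs in selected and other gate cells together, the median was -0.19.

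Most lists of markers of other cell types were near 0, and neutrophil markers stood highest. Markers of T cells summed to 6.99 CPM in control and 10.5 CPM in telmisartan selected cells. *Skap1* held 7 of 10 UMIs in control but 1 of 12 in telmisartan cells, and *Cd8a* held 0 and 2. *Cd4* was at 0 in both groups, and the CD3 genes at 0 by the rule. B cell markers reached 0.699 and 0 CPM, all from 1 UMI of *Cd79b*, with *Cd79a* and *Ms4a1* at 0. NK cell markers gave 1.40 and 11.3 CPM, all from *Klrd1*, of which 1 telmisartan cell held 61.5% of its group's UMIs, with *Klrb1c*, *Ncr1* and *Prf1* at 0. Markers of mast cells and basophils were at 0 in both groups. Tumor epithelial markers gave 1.40 and 0 CPM, from 2 UMIs of *Epcam*, with 4 keratin genes at 0 and *Cldn4* missing from the table. Fibroblast markers gave 2.10 and 20.1 CPM, with *Col3a1* at 1 of 3 and 14 of 23 UMIs, 78.6% of the latter in 1 cell, and *Pdgfra* was at 0. Endothelial markers gave 41.2 and 29.6 CPM, of which *Pecam1*, also a myeloid gene, held 56 of 59 and 31 of 34 UMIs, and *Cldn5* was at 0. Erythroid markers gave 9.79 and 0 CPM, led by *Hba-a1* with 7 UMIs in control cells. Neutrophil markers were the highest of these lists at 292 and 286 CPM, against 91.9 and 97.1 CPM in other gate cells. The collagenase gene *Mmp8* supplied 303 of 418 and 285 of 328 of those UMIs, while *Ngp* was at 0 and *Ly6g* had 0 and 1 UMI. *S100a8* was the other neutrophil marker with at least 100 UMIs in selected cells. For 4 neutrophil markers, selected and other gate cells together held at least 200 UMIs. Of these, 2 were at least 2-fold higher in selected cells and 2 were lower. The source of these UMIs was not tested.

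Dendritic cell markers differed between the groups, at 18.2 CPM in control and 95.9 CPM in telmisartan selected cells. *Xcr1* was at 0 in both. The difference traced to 1 telmisartan cell of 18647 UMIs, which held 42 of 42 *Ccr7* UMIs, 48 of 50 *Fscn1* UMIs and 258 of 268 UMIs of the chemokine gene *Ccl22*, next to 207 UMIs of *Lyz2*. No control cell held *Fscn1* together with *Ccr7*. Whether that barcode held 1 cell or more was not tested. By Scrublet score, 24 of the 258 selected cells (9.30%) were among the 942 kept cells with the highest scores, 12 in each group, against 10.5% of other gate cells.

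The genes of the label were then examined for their levels. *Serpinb2* (chr1:107511423-107535478, GRCm38) encodes plasminogen activator inhibitor type 2. It had 234 UMIs in control and 266 in telmisartan selected cells, or 164 [143 to 186] and 232 [205 to 262] CPM, against 4.23 and 7.89 CPM in other gate cells. A UMI was seen in 38 of 132 (28.8%) and 41 of 126 (32.5%) selected cells. A UMI of *Serpinb2* was thus captured in a minority of the selected cells. Cells without one may still express the gene, and the rule used these counts.

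*Il6* (chr5:30013114-30019981) encodes interleukin-6. Its level was 216 [193 to 241] CPM in control and 433 [396 to 473] CPM in telmisartan selected cells, from 309 and 497 UMIs, and 12.5 and 22.3 CPM in other gate cells. The log2 ratio of telmisartan to control was 1.00 [0.80 to 1.21] in selected cells and 0.84 in other gate cells. A UMI was present in 54 of 132 control cells (40.9%) and 72 of 126 telmisartan cells (57.1%). *Il6* was the rule gene with the largest ratio between the groups, and it was raised on either side of the limit.

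*Nos2* (chr11:78920787-78960254) was the most widespread of the 6 genes. It stood at 1366 [1307 to 1428] CPM in control and 1515 [1445 to 1588] CPM in telmisartan selected cells, with a UMI in 116 of 132 (87.9%) and 114 of 126 (90.5%). The log2 ratio was 0.15 [0.05 to 0.24] in selected cells and -0.33 in other gate cells, where the levels were 265 and 211 CPM. The sign of the *Nos2* ratio thus differed between the sets, and the difference was not tested.

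The remaining rule genes differed less between the groups than *Il6*. *Ptges* (chr2:30889471-30929863), the prostaglandin E synthase that works behind *Ptgs2*, fell from 147 to 100.3 CPM, with a log2 ratio of -0.56 [-0.90 to -0.22]. *Procr* (chr2:155751117-155755471), the endothelial protein C receptor, was at 117 and 134 CPM, with an interval of its log2 ratio from -0.12 to 0.53. *F3* (chr3:121723537-121735048), the tissue factor that starts coagulation, was at 231 and 201 CPM, with an interval from -0.45 to 0.05. For *Procr* and *F3*, no difference between the groups was detectable at this depth.

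The label genes outside the rule gave the widest split. *Cxcl3* (chr5:90786103-90789600), a ligand of the neutrophil receptor CXCR2, fell from 3145 [3053 to 3238] CPM in control to 1513 [1443 to 1586] CPM in telmisartan selected cells, a log2 ratio of -1.06 [-1.14 to -0.97]. The *Cxcl3* ratio in other gate cells was -0.79, from 372 to 215 CPM. *Hmox1* (chr8:75093621-75100589) rose from 925 [876 to 976] CPM to 1922 [1843 to 2004] CPM, a log2 ratio of 1.06 [0.96 to 1.16] against 0.39 in other gate cells. A single control cell held 248 of the 1323 control UMIs of *Hmox1*, and without the largest cell of each group the log2 ratio was 1.24. *Cxcl3* and *Hmox1* thus passed 2-fold in opposite directions.

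Free RNA in the capture can place UMIs in cells that do not express a gene, so the genes were also read in T cells. In 44 control and 83 telmisartan kept cells with at least 2 UMIs of the CD3 genes and fewer than 5 of *Lyz2*, *Serpinb2* and *Ptges* were at 0, *Il6* was in 0 and 1 cells, *Procr* in 1 and 1, *F3* in 1 and 0, and *Nos2* in 2 (4.55%) and 3 (3.61%). *Cxcl3* was in 1 (2.27%) and 5 (6.02%) of these T cells and *Hmox1* in 4 (9.09%) and 11 (13.3%). A count of 0 allows a share of cells with a UMI of up to 6.82% of 44 cells and 3.61% of 83 cells, at a floor of 3 counts. The exact intervals of a count of 0 reach further, to 8.04% and 4.35%. The T cells were shallower, with medians of 2783.5 and 2920 UMIs. With gate cells thinned to 2000 UMIs, *Nos2* had a UMI in 19.8% of control and 18.4% of telmisartan gate cells and *Il6* in 2.46% and 4.09%. *Nos2* thus lay above the share in these T cells. T cells with 5 or more UMIs of *Lyz2* were left out, so background elsewhere in the capture can exceed the share in this set. The thinned shares of the other 5 rule genes, from 1.19% to 4.24%, lay within the exact intervals of their shares in T cells. The upper bounds of these intervals were 4.35% or more, so this number of T cells did not set the 5 genes apart from background. For *F3* in telmisartan cells this depended on the bound, since 4.24% lay above the floor of 3.61%.

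**Figure D2:**
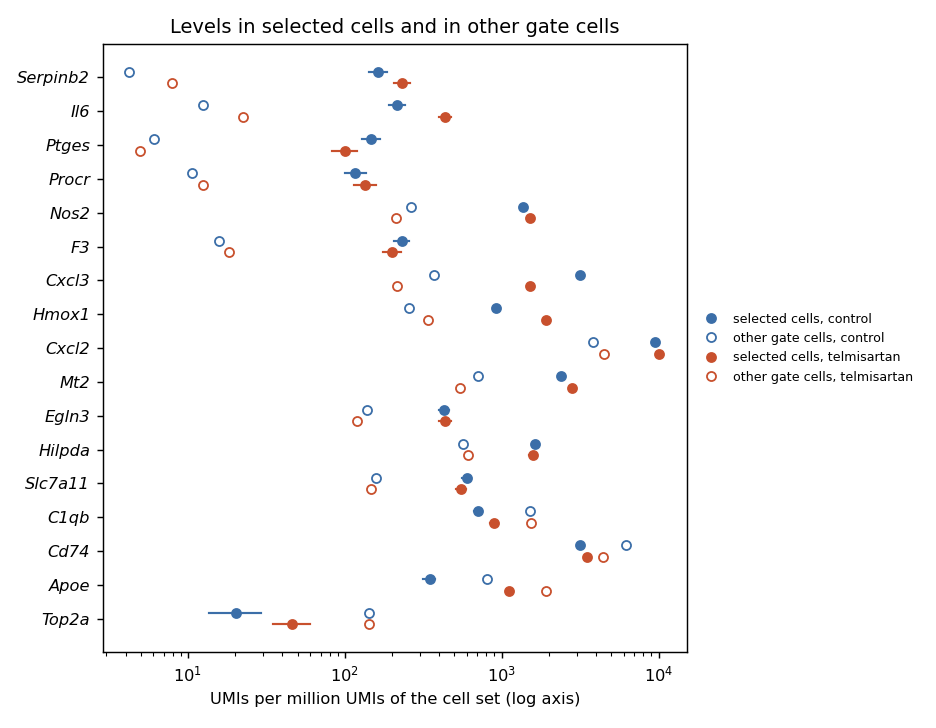
Levels of the selection genes, the label genes and genes of the lists, in CPM on a log axis. Filled points are selected cells with their exact 95% Poisson intervals, open points are other gate cells, blue is control and orange is telmisartan. *Cd74*, *C1qb*, *Apoe* and *Top2a* lie lower in selected than in other gate cells of both groups, and the other genes lie higher.

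The selected cells held UMIs of different sets of the genes that chose them. The 258 cells spread over 35 combinations of the 6 genes. The most frequent was *Il6* with *Nos2* and *F3* in 28 cells, followed by *Ptges* with *Procr* and *Nos2* in 24, and by *Procr* with *Nos2* and *F3* and *Ptges* with *Nos2* and *F3* in 22 cells each. All 6 genes had a UMI in 2 cells, both from the telmisartan-treated group. No combination held more than 28 cells. The rule itself admits many combinations, and a UMI of a gene can be missed in a cell that expresses it. The spread over combinations therefore does not show whether the selected cells differed in expression of the 6 genes.

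Whether pairs of the genes occurred in the same cell was described over all gate cells thinned to 2000 UMIs, 6874 cells of both groups. *Nos2* was seen in 54.8% [44.2 to 65.2] of cells with *Serpinb2* and in 18.7% [17.7 to 19.6] of cells without it. *F3* was seen in 21.5% of cells with *Serpinb2* and in 3.72% of cells without. *Il6* was seen in 19.4% of cells with *Serpinb2*, against 3.01%. These pairs shared cells more often than their separate shares. The gap was narrower for *Il6* and *Ptges*, with *Ptges* in 5.41% [2.82 to 9.25] of cells with *Il6* and in 2.09% [1.76 to 2.46] of cells without. These are shares within 1 capture, at equal depth, and were not tested.

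Selected cells with *Serpinb2* also differed from those without it in genes that the rule did not use. In the control group, the 38 cells with *Serpinb2* had 4594 CPM of *Cxcl3*, and the 94 cells without it had 2703. In the telmisartan-treated group, 41 cells with *Serpinb2* had 2896 CPM and 85 cells without it had 1001. The order was the same for *Inhba*, a subunit of activin A, at 4648 against 1931 CPM in control and 2647 against 1224 CPM in telmisartan cells. It was the reverse for *Cd74*, the invariant chain of MHC class II, at 1676 against 3624 CPM in control and 1886 against 4097 CPM in telmisartan cells. Cells with *Serpinb2* were shallower, with medians of 7979.5 against 11160.5 UMIs in control and 6944 against 9633 in telmisartan.

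Cell to cell spread was ranked by the Fano factor, the variance over the mean of UMIs in selected cells thinned to 2000 UMIs. The median gene of 2512 had a Fano factor of 1.15 in control and 1.16 in telmisartan cells, close to 1, the value of counting noise alone. Genes were ordered by the lower of their values in the 2 groups, and the order within 1 group differs. The iron storage gene *Fth1* had the highest rank, at 23.3 and 18.3, followed by *Cd74* at 12.8 and 13.2, the chemokine *Cxcl2* at 13.4 and 12.4 and *Lyz2* at 15.03 and 11.4. The metallothionein genes *Mt1* and *Mt2*, the matrix genes *Thbs1*, *Mmp12* and *Spp1*, the MHC class II genes *H2-Aa*, *H2-Ab1* and *H2-Eb1*, and *Cxcl3*, *Inhba* and *mt-Co1* complete the first 15 ranks. Both inflammatory genes and antigen presentation genes were thus spread unevenly over the selected cells.

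**Figure D3:**
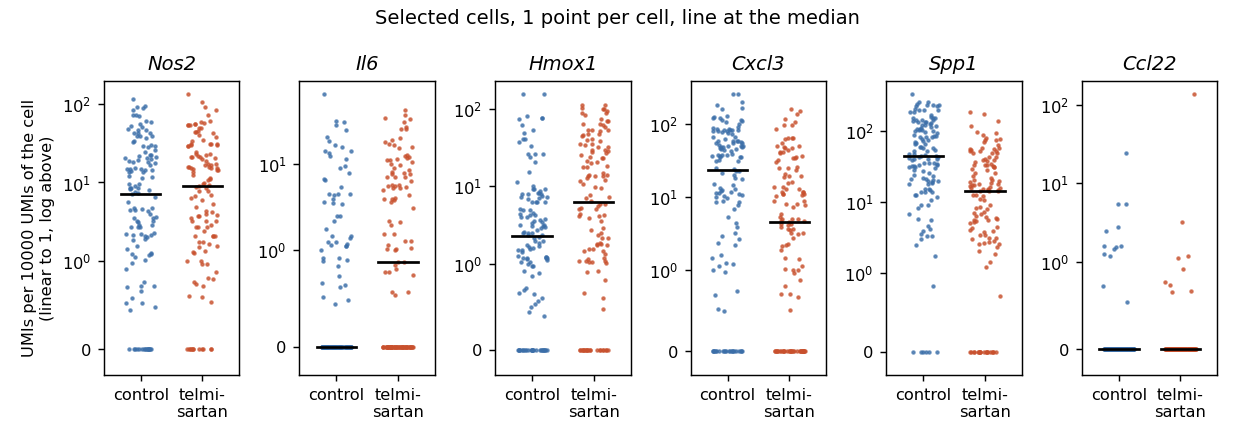
UMIs per 10000 UMIs of each selected cell for *Nos2*, *Il6*, *Hmox1*, *Cxcl3*, *Spp1* and *Ccl22*, with 1 point per cell and a line at the median. The axis is linear to 1 and logarithmic above. Medians of *Cxcl3* are 23.6 in control and 4.58 in telmisartan cells, medians of *Hmox1* are 2.25 and 6.25, and 1 telmisartan cell stands apart for *Ccl22* at 138.

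Single cells covered wide and overlapping ranges in both groups. The median of *Spp1*, which encodes osteopontin, was 44.4 UMIs per 10000 of a control cell and 14.2 of a telmisartan cell, with highest values of 334 and 184. The median of *Nos2* was 7.24 and 9.03, with highest values of 113 and 133. For *Cxcl2*, a further CXCR2 ligand, the medians were 91.2 and 90.5. The *Spp1* medians stood apart between the groups and those of *Cxcl2* nearly coincided.

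The selected cells were next set beside the other gate cells. Of 9898 genes, 198 (2.00%) were at least 2-fold higher in selected cells and 661 (6.68%) at least 2-fold lower, and 31.5% were higher by any amount. The limit on UMIs was set on both sets together, and the other gate cells supplied most UMIs. Genes seen mainly in other gate cells thus met it more easily. The limit was met by 6705 genes after thinning and by 8781 for at least 4 of the 6 genes against 0. List medians under these settings thus cover other genes too. Genes that the selection used were left out of the lists in this contrast, since their counts chose the cells. All 6 rule genes were among the 20 highest, and outside the rule the largest ratios were those of *Tnfsf15*, a cytokine of the TNF family, at a log2 ratio of 4.12, the EGF receptor ligand *Ereg* at 3.47, the carbonic anhydrase *Car4* at 3.08, *Cxcl3* at 2.98 and the gelatinase *Mmp9* at 2.85. *Mirt2*, *Olfml2b*, the protease inhibitor *Slpi*, the formyl peptide receptor *Fpr1*, *Dach1*, *Gm48444*, the cathepsin *Ctsk*, *Hmox1* and *Inhba* followed, between 2.84 and 2.22. Some of these rested on few cells. *Tnfsf15* had a UMI in 8 control and 2 telmisartan selected cells, *Ereg* in 20 and 3, *Car4* in 11 and 4, and *Mmp9* in 7 and 3, of which 1 control cell held 77.3% of the control UMIs. *Slpi* and *Inhba*, in contrast, had a UMI in 83 and 114 of 132 control cells.

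The hypoxia label was examined with 22 hypoxia genes. Of 21 with at least 200 UMIs, 19 were higher in selected than in other gate cells, 7 of them at least 2-fold, with a median log2 ratio of 0.63 against -0.19 over all genes. The oxygen-sensing prolyl hydroxylase *Egln3* had a log2 ratio of 1.73 [1.64 to 1.82], the lipid droplet gene *Hilpda* 1.46, the oxidoreductase *Ero1l* 1.39, the mitophagy gene *Bnip3* 1.25 and the glucose transporter *Slc2a1* 1.00. The vascular growth factor *Vegfa* was at 0.59. All 15 glycolysis genes were higher, with a median of 0.43, and only *Slc2a1*, which stands in both lists, passed 2-fold. The summed level of the hypoxia list was 7193 CPM in control selected cells and 3455 in control other gate cells, and 7441 and 3773 CPM in telmisartan cells.

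Oxidative stress and metal-binding genes were also higher in the selected cells. Of 17 NRF2, heme and iron genes, 14 were higher and 6 at least 2-fold, with a median of 0.89. Besides *Hmox1*, the cystine transporter *Slc7a11* (1.91), glutathione reductase *Gsr* (1.79), the heme transporter *Slc48a1* (1.31), the autophagy receptor *Sqstm1* (1.13) and *Fth1* (1.02) passed 2-fold. The quinone reductase gene *Nqo1* was at 0 in the selected cells of both groups. *Mt1* and *Mt2*, which bind zinc and copper, had log2 ratios of 1.31 and 2.01. Of 11 genes of the integrated stress response, 5 were higher and 6 lower, with a median of -0.09 and 0 past 2-fold.

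Among the secreted inflammatory genes, most were higher in the selected cells. Without *Il6*, 12 of 13 cytokines and growth factors were higher, 6 of them at least 2-fold, with a median of 0.73. These included *Il1a* at 2.11 and *Tnf* at 1.99, whereas *Il1b* was at 0.70 and the IL-6 family cytokine *Osm* at 0.09. Of 18 chemokines, 11 were higher and 6 at least 2-fold, among them *Ccl22* with most of its UMIs in 1 telmisartan cell (-0.37 in control cells), and 7 lower and 3 at least 2-fold, with a median of 0.47. The ligands *Cxcl1* and *Ccl3* were at 1.75 and 1.64, and the CXCR3 ligand *Cxcl9* at -1.01. The 3 EGF receptor ligands with enough UMIs, *Ereg*, *Areg* and *Hbegf*, were each past 2-fold.

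Enzymes and clotting factors around the rule genes showed mixed order. In prostaglandin synthesis without *Ptges*, 4 of 10 genes were higher, 1 of them at least 2-fold, and 6 lower, 1 of them at least 2-fold. The median was -0.18 (-0.07 after thinning and -0.41 for at least 4 of the 6 genes against 0). The cyclooxygenase *Ptgs2*, which makes the substrate of PTGES, was at 1.53, and *Ptgs1* at -0.88. Without *F3*, *Procr* and *Serpinb2*, 10 of 12 coagulation and plasminogen genes were higher, 3 at least 2-fold, and 2 lower, 1 at least 2-fold, with a median of 0.77. Thrombomodulin (*Thbd*), the partner of the protein C receptor, was at 1.81 and urokinase (*Plau*) at -0.93. Without *Nos2*, 6 of 8 genes of arginine and nitric oxide metabolism were higher, with a median of 0.61.

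Nearly all matrix and feedback genes were higher in the selected cells, and immediate-early genes were divided. Of 16 matrix and angiogenic genes 15 were higher, 6 at least 2-fold, with a median of 0.69, led by *Mmp9* and the collagenase *Mmp13* at 2.17. Of 17 NF-kB feedback genes 16 were higher but only the deubiquitinase *Tnfaip3* passed 2-fold, at 1.21, and the median was 0.47. The inhibitor *Nfkbia* was at 1.00 to 2 decimals and below the limit. Of 21 immediate-early genes 13 were higher, with a median of 0.15 (0.0043 after thinning) and *Fosl1* alone past 2-fold at 1.81, and 8 were lower.

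Antigen presentation, resident-type and cell cycle genes were lower in the selected cells. All 7 MHC class II genes were lower, 2 of them at least 2-fold, with a median of -0.87 over both groups. The gap was wider in control than in telmisartan cells, at -0.96 and -0.34 for *Cd74* and at -1.29 and -0.29 for *H2-Eb1*, and this difference was not tested. Without *Cbr2*, *Folr2* and *Fcrls*, 8 of 10 C1q and resident-type genes were lower, with a median of -0.91. The complement gene *C1qb* was at -0.95 and *Apoe*, which carries lipid, at -0.87. Of 15 cell cycle genes 14 were lower, 13 at least 2-fold, with a median of -1.73. The cycle inhibitor *Cdkn1a* was the exception at 0.34. The 10 lowest genes of all, *Fbxo5*, *Mcm10*, *Cdca2*, *Ocstamp*, *Cdkn3*, *Sept3*, *Col14a1*, *Ska3*, *Nudt7* and *Gdf3*, had 1 or 2 UMIs in the selected cells, with log2 ratios from -4.33 [-9.64 to -1.85] to -3.45 [-8.76 to -0.96]. Their UMIs lay almost all in the other gate cells. The limit on UMIs was met through those cells, so the 10 genes were admitted by the set in which they were high. With 1 or 2 UMIs in the selected cells the size of each ratio is uncertain, as the intervals show.

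Further immune lists were read beside the 31.5% of all genes that were higher and their median of -0.19. Of 14 type I interferon genes 9 were higher, with a median of 0.14 that was 0.011 after thinning. Of 14 interferon-gamma genes 5 were higher and 9 lower, with a median of -0.08 that was 0.09 after thinning. Of 9 monocyte genes 6 were higher, with a median of 0.41, but -0.01 after thinning and -0.06 for cells with at least 4 of the 6 genes against cells with 0. The monocyte chemokine receptor *Ccr2* was at -0.78. Of 9 IL-4 induced genes 3 were higher, with a median of -0.09 that was -0.67 after thinning and -1.64 for at least 4 genes against 0, and the lectin *Mgl2* was at -1.57. Of 11 checkpoint and costimulation genes 5 were higher, with a median of -0.06. *Cd274*, which encodes PD-L1, was at 0.93, and *Tnfsf9*, the ligand of 4-1BB, at 1.03.

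The treatment groups were then compared within the selected cells, gene by gene. Of 3638 genes with at least 100 UMIs in the selected cells, 60 (1.65%) were at least 2-fold higher and 25 (0.687%) at least 2-fold lower in the telmisartan-treated group. The median log2 ratio was 0.00, with quartiles at -0.21 and 0.23. By any amount, 50.4% of the 3638 genes were higher and 49.6% lower in selected cells of the telmisartan-treated group. Without scaling for depth, as mean UMIs per cell, the median of all genes shifted to -0.25, and 33 genes passed 2-fold upward and 77 downward, so directions are given relative to the shift. In other gate cells, 54 of the 60 higher genes had the same sign and 18 were also past 2-fold. All 25 lower genes had the same sign there and 1 was past 2-fold. Of all 3638 genes, 46.6% were higher and 53.4% lower in other gate cells, which came from the same pools. With the largest cell of each group left out gene by gene, 54 of the 60 and all 25 were still past 2-fold. Since the 60 and 25 genes were picked by their ratios in selected cells, the sizes in the sets are not compared.

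The 10 largest rises were led by genes that few cells decided. *Lyz1*, a lysozyme gene, rose from 9.09 to 95.02 CPM, a log2 ratio of 3.39 [2.55 to 4.34], but it had a UMI in 12 control and 10 telmisartan cells, of which 1 telmisartan cell held 37.6% of the UMIs of its group, and its ratio was -0.37 in cells with at least 4 of the 6 genes. *Ccl22* had a log2 ratio of 2.83 and fell to -1.30 without the largest cell of each group. The lipid transfer protein *Pltp* rose from 16.8 to 72.4 CPM (2.11 [1.44 to 2.83]), in 15 and 36 cells. The fatty acid receptor *Cd36* rose from 87.4 to 323 CPM (1.88 [1.59 to 2.19]), in 33 and 61 cells. *Apoe* rose from 347 to 1119 CPM (1.69 [1.54 to 1.84]). *Pltp*, *Cd36* and *Apoe* act in lipid transport, and their ratios in other gate cells were 0.63, 0.53 and 1.25. The phosphatase *Dusp2* (1.92), the transcription regulator *Hexim1* (1.73), the monocyte gene *Plac8* (1.66) and the tubulin-binding *Stmn1* (1.61) were also among the 10.

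Most of the 10 largest falls rested on more cells. *Spp1* fell from 7884 [7739 to 8031] CPM to 2619 [2526 to 2714] CPM, a log2 ratio of -1.59 [-1.65 to -1.53], with a UMI in 126 of 132 and 106 of 126 cells. Its ratio in other gate cells was -0.65. The cell fusion gene *Dcstamp* fell from 273 to 74.1 CPM (-1.88 [-2.24 to -1.54]), in 53 and 24 cells. *Tnfrsf9*, which encodes 4-1BB, fell from 743 to 278 CPM (-1.42 [-1.60 to -1.24]). The argininosuccinate synthase *Ass1*, which rebuilds arginine for nitric oxide synthesis, fell from 349 to 144 CPM (-1.28 [-1.54 to -1.02]). *Ereg* fell from 129 to 43.6 CPM (-1.57), from 20 cells to 3, and the log2 ratio was -2.73 without the largest cell of each group. The actin crosslinker *Actn1* (-1.41), the niacin receptor *Hcar2* (-1.35), *Sec13* of the secretory coat (-1.32), the chemokine *Cxcl14* (-1.28, but 0.63 in cells with at least 4 of the 6 genes) and the chitinase-like *Chil3* (-1.24) were the others. These 10 genes were lower in other gate cells too, from -1.46 for *Ereg* to -0.21 for *Chil3*.

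**Figure D4:**
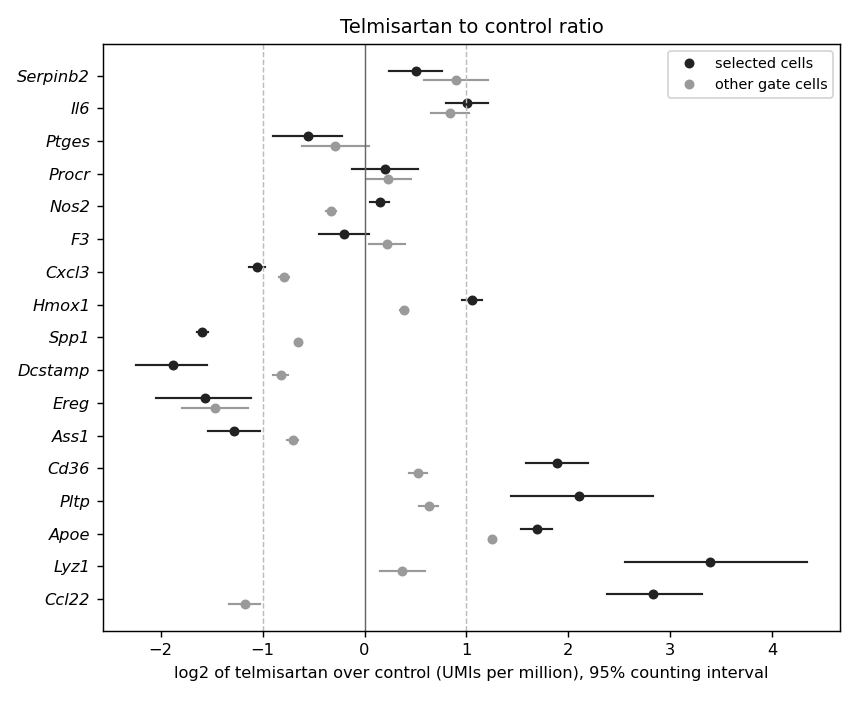
Log2 ratio of telmisartan to control in selected cells (black) and other gate cells (grey) for the selection genes, the label genes and several of the largest rises and falls. Lines are exact 95% conditional binomial intervals of counting error, and dashed lines mark 2-fold. *Ccl22* lies on opposite sides of 0 in the 2 sets, at 2.83 and -1.18, and its value in selected cells rests on 1 cell.

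The lists of the label's program were compared between the groups. The 17 hypoxia genes with enough UMIs had a median log2 ratio of 0.02 beside 0.00 over all 3638 genes, with 10 higher, 7 lower and 0 past 2-fold. That median was -0.02 with equal weight per cell, -0.01 with TMM factors and -0.23 without scaling, where all genes shifted to -0.25, but 0.13 after thinning and 0.35 in cells with at least 4 of the 6 genes. The 15 glycolysis genes had a median of 0.18 and 0 past 2-fold, and -0.07 without scaling. *Hilpda* stood at 1620.2 and 1576 CPM, *Slc2a1* at 598 and 583 and *Gapdh* at 4968 and 4964. The summed level of the hypoxia genes had a log2 ratio of 0.05 [0.01 to 0.09].

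Most oxidative stress genes were higher in telmisartan selected cells. The 6 rule genes, which chose the cells of both groups, were divided, with 4 higher and 2 lower. Their median of 0.18 was -0.08 without scaling and 0.0041 in cells with at least 4 of them, and *Il6* alone passed 2-fold, by less than 0.01. The 5 label genes, 3 of them rule genes, had a median of 0.50. Of 16 NRF2, heme and iron genes 12 were higher and *Hmox1* alone past 2-fold, with a median of 0.30 in selected and 0.30 in other gate cells. *Sqstm1* rose from 410.3 to 764 CPM, a log2 ratio of 0.90, and the ferritin light chain *Ftl1* from 5850.4 to 7327 CPM (0.32), while the heavy chain *Fth1* fell from 24708 to 19415 CPM (-0.35). The 2 ferritin chains thus had ratios of opposite sign, both within 2-fold. *Mt1* and *Mt2* were at 0.14 and 0.24 (-0.11 and -0.01 without scaling). Of 6 stress response genes 5 were higher, with a median of 0.29.

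Most cytokines were lower in telmisartan selected cells, 0 of them by 2-fold. Of 11 cytokines and growth factors 2 were higher, *Il6* and *Tnf*, with *Il6* alone past 2-fold, and 9 were lower. The median was -0.57 in selected and 0.11 in other gate cells, and -0.62 in selected cells without *Il6*. *Il1a* fell from 2371 to 1600 CPM, a log2 ratio of -0.57 [-0.65 to -0.49], and *Inhba* from 2566 to 1608 CPM (-0.67 [-0.76 to -0.59]). *Osm*, *Lif* and the receptor antagonist *Il1rn* were at -0.68, -0.84 and -0.41. *Tnf* was at 493 and 499.5 CPM (0.02 [-0.14 to 0.18]), and *Il1b* at 5397 and 5322 CPM (-0.02 [-0.07 to 0.03]). The direction depended on the limit of the selection, since with at least 2 of the 6 genes the median of the list was 0.14.

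Chemokines divided. Of 16 with enough UMIs, 9 were higher and 7 lower, with a median of 0.09, which was -0.16 without scaling and -0.26 without the largest cell of each group. The monocyte attractants *Ccl7* and *Ccl12* were at 0.84 and 1.25, the latter 0.81 without the largest cell. The macrophage inflammatory proteins *Ccl3*, *Ccl4* and *Ccl9* were at -0.35, -0.56 and -0.59. *Cxcl1* rose from 1452 to 2217 CPM (0.61), *Cxcl2* stayed at 9438 and 10039 CPM (0.09) and *Cxcl3* fell by 1.06 on the log2 scale. These 3 ligands of CXCR2 thus differed in sign within the same cells.

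Most prostaglandin genes were lower in telmisartan selected cells, while clotting and arginine genes were divided. Rule genes among these lists chose the cells. Of 6 prostaglandin genes 1 was higher and 5 were lower, 0 of them past 2-fold, with *Ptgs2* at -0.11. Their median was -0.10 and stayed at -0.10 without *Ptges*, but was 0.018 in cells with at least 2 of the 6 rule genes. The 13 coagulation genes had a median of -0.04 (0.04 with equal weight per cell), and -0.07 without *F3*, *Procr* and *Serpinb2*. *Thbd* fell from 255 to 137 CPM, a log2 ratio of -0.90 [-1.18 to -0.62], and the transglutaminase subunit *F13a1* rose from 464 to 794 CPM (0.78). The 8 arginine and nitric oxide genes had a median of -0.15, and -0.35 without *Nos2*, and *Ass1* alone passed 2-fold. With *Nos2* that sign was not stable, at 0.058 with at least 2 of the 6 genes and 0.10 with 90% of tag reads on 1 tag. *Gch1*, which makes the cofactor of nitric oxide synthase, rose from 89.5 to 143 CPM (0.68 [0.33 to 1.02]).

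Among matrix and growth factor genes, *Spp1* set the sum. The 14 matrix and angiogenic genes had a median of 0.07 (-0.18 without scaling), while their summed level fell from 23705 to 17417 CPM, with *Spp1* alone past 2-fold. *Mmp12* stood at 3127 and 3284 CPM, and fibronectin (*Fn1*) fell from 2919 to 2170 CPM. The median and the sum thus differed in sign. They also did for the label genes (sum -0.05), the NRF2, heme and iron genes (-0.08), the chemokines (-0.11), the arginine and nitric oxide genes (0.00042) and the IL-4 induced genes (0.0082). The sign of the matrix median was not stable, at -0.13 after thinning and -0.02 in cells with at least 4 of the 6 rule genes. The 3 EGF receptor ligands were all lower, with a median of -1.05 in selected and -0.26 in other gate cells. That median was -0.50 in cells with at least 2 of the 6 rule genes, -0.60 with at least 4, and -1.45 with equal weight per cell. *Hbegf* fell from 65.0 to 31.4 CPM (-1.05 [-1.65 to -0.48]) and *Areg* from 175 to 139 CPM (-0.33). *Tnfsf15* was below the limit of 100 UMIs, with 96 UMIs in 8 control cells and 3 in 2 telmisartan cells, a log2 ratio of -4.68 [-6.98 to -3.09].

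Feedback and immediate-early genes were mostly higher in the telmisartan-treated group. Of 15 NF-kB feedback genes 12 were higher, with 0 past 2-fold and a median of 0.39 in selected and 0.38 in other gate cells, but 0.077 in cells with at least 4 of the 6 genes. *Nfkbia* rose from 2416 to 2839 CPM (0.23) and *Tnfaip3* from 724 to 947 CPM (0.39). Of 19 immediate-early genes 15 were higher and 3 past 2-fold, with a median of 0.48 in selected and 0.41 in other gate cells. The 3 were *Dusp2*, *Fosl1* (1.40 [0.79 to 2.03]) and the nuclear receptor *Nr4a3* (1.01 [0.73 to 1.29]). The median of this list was 0.18 after thinning, 0.22 in cells with at least 4 of the 6 genes and 0.29 with 90% of tag reads on 1 tag. In the 68 selected cells with at least 4 genes, *Dusp2* and *Nr4a3* had ratios of -0.01 and -0.30.

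Most interferon genes were higher in telmisartan selected cells. The 5 type I interferon genes with enough UMIs had a median of 0.87 in selected and 1.06 in other gate cells, with *Slfn4* from 124 to 255 CPM (1.04) and *Rsad2* from 75.5 to 161 CPM (1.10) past 2-fold. Of 10 interferon-gamma genes 7 were higher, with a median of 0.56 in selected cells but -0.47 in other gate cells. The transcription factor *Irf1* rose from 142 to 319 CPM (1.17 [0.92 to 1.42]) and *Cxcl9* fell from 466 to 271 CPM (-0.78). The sign of this list was not stable, with a median of -0.07 in cells with at least 2 of the 6 genes. The 6 MHC class II genes were all higher, with a median of 0.29 in selected and -0.51 in other gate cells. That median was -0.86 in selected cells with at least 4 genes and -0.38 in cells with at least 2. *Cd74* stood at 3169 and 3499 CPM.

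Resident-type, monocyte and cell cycle genes were compared last. Of 9 C1q and resident-type genes 8 were higher, *Apoe* alone past 2-fold, with a median of 0.21 (-0.05 without scaling and -0.17 in cells with at least 4 of the 6 genes). *C1qb* rose from 709 to 892 CPM (0.33), and the mannose receptor *Mrc1* fell from 275 to 172 CPM (-0.68 [-0.94 to -0.43]). Of 8 monocyte genes 5 were higher and 3 past 2-fold, and *Chil3* was past 2-fold downward, with a median of 0.48 that was 0.013 with 90% of tag reads on 1 tag. The surface antigen *Ly6c2* rose from 97.9 to 259 CPM (1.40). Of 5 IL-4 induced genes 2 were higher, with a median of -0.68 that was 0.0031 in cells with at least 4 of the 6 genes. The chemokine *Ccl17* was at 0.67 in this list but at -1.71 without the largest cell of each group, and *Mgl2* fell from 164 to 86.3 CPM (-0.93). Of 8 checkpoint and costimulation genes 3 were higher, with a median of -0.20, and *Cd274* fell from 537 to 418 CPM (-0.36 [-0.53 to -0.19]). The 3 cell cycle genes with enough UMIs, *Cdkn1a*, *Pcna* and *Mki67*, were all higher, with a median of 0.39. The 10 macrophage identity genes had a median of -0.01, and *Lyz2* fell from 13332 to 8994 CPM (-0.57 [-0.60 to -0.53]), against -0.12 in other gate cells. Of the 2 neutrophil markers with enough UMIs, *S100a8* was lower (-0.88) and *Mmp8* higher (0.23).

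Genes of the receptors that telmisartan acts on, and other genes of the angiotensin system, were scarcely seen in these cells. *Agtr1a* had 1 UMI in control and 0 in telmisartan selected cells, and *Agtr1b*, *Agtr2*, *Ace* and *Agt* were at 0 in both groups. *Pparg* had 7 UMIs in each group, at 4.89 and 6.10 CPM, with a log2 ratio of 0.32 [-1.42 to 2.06]. At this depth no difference was detectable.

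Promoters of the rule genes were read because these genes met in the same cells. RefSeq promoters of GRCm38.p6, from 250 bases before the gene start to 50 after it, were available for 5 of the 6 genes (6 promoters, 2 of them *Serpinb2*), and *Nos2* was not matched. On either strand, ACGTG, the core of the hypoxia response element, was in 0 of the 6 promoters, GGNNTTTCC, an NF-kB type motif, in 2, and TGACNNNGC, an NRF2 type motif, in 1. Of all 32851 promoters 19.6%, 5.82% and 12.4% held these motifs. Of 27 promoters from 19 of the 22 hypoxia genes, 16 (59.3%) held ACGTG, of 18 promoters from 14 of the 17 NF-kB feedback genes, 9 held GGNNTTTCC, and of 20 promoters from 15 of the 20 NRF2, heme and iron genes, 6 (30.0%) held TGACNNNGC. The upstream 250 bases of *Il6* (chr5:30012864-30013113, plus strand), *F3* (chr3:121723287-121723536, plus strand), *Procr* (chr2:155750967-155751216, plus strand) and *Cxcl3* (chr5:90785851-90786100, plus strand) are shown because each holds a motif, in capitals. The RefSeq start of *Procr* lies inside the gene as placed by GENCODE, so the end of its shown bases overlaps the gene. In *Cxcl3*, CACGTG reads as ACGTG on both strands, and a GGNNTTTCC match stands downstream of it. A match is a description of letters and no evidence of binding.
Il6: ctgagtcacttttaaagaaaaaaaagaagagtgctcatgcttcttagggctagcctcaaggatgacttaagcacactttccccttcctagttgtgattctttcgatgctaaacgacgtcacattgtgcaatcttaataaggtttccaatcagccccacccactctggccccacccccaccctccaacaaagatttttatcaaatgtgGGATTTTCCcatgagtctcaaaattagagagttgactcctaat
F3: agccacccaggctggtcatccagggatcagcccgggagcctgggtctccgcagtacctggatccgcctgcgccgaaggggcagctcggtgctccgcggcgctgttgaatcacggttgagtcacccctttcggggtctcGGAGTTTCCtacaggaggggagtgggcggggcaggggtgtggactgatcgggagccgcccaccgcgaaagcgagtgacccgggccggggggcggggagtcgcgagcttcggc
Procr: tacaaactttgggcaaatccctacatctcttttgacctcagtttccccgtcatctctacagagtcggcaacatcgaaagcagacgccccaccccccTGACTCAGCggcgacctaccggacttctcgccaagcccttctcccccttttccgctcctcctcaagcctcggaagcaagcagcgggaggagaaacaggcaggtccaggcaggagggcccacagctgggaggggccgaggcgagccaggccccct
Cxcl3: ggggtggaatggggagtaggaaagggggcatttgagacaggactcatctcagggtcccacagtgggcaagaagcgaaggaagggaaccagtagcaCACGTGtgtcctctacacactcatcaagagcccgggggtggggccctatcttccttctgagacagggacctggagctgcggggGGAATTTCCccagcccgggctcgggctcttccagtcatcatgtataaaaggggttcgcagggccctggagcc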

How the data were processed

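The authors deposited counts of UMIs per gene and counts of Sample Tag reads for each putative cell of 1 capture, as made by the BD Rhapsody WTA pipeline 1.11 with reads aligned to GRCm38 and counted on exons and introns of GENCODE M19, with neither a quality filter nor a normalization. Both were read as deposited, with 27031 genes. Limits, rule, comparison sets, 36 lists with 364 genes and alternatives were fixed before the data were examined here, but members and lists were chosen with earlier results from these data known. Named genes are the rule and label genes, a few of each list, the 10 largest rises and falls between groups (at least 100 UMIs), the 20 highest and 10 lowest against other gate cells (at least 200 UMIs) and the 15 of highest Fano factor, of which 1 of the rises is not reported here.

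Levels were summed UMIs over the summed depth of the cells. With 1 pool of 5 mice per group nothing was tested between groups, and genes were counted when past 2-fold. The intervals were checked on simulated data. Cells split between the tags (1580) were left out. Doublets with the same tag were scored with Scrublet (scanpy 1.11.5) and kept, since the automatic threshold marked 0 cells, and leaving out the highest scores was an alternative. The others were depth (thinning to 2000 UMIs with seed 1), scaling (edgeR 4.0.16 TMM, none, or equal weight per cell), and the limits of cells and genes. Python 3.11.15, numpy 2.4.6, scipy 1.17.1, pandas 2.3.3, matplotlib 3.10.9 and R 4.3.3 were used. Gene positions are from GENCODE M21 and promoters from RefSeq.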

Additional observations from a re-analysis of the deposited data

Results flagged for a closer look

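Of the 60 genes at least 2-fold higher in telmisartan than in control selected cells, 54 had the same sign in other gate cells. In 4 of the others the ratio pointed the other way in other gate cells with both counting intervals on their side of 0, and in each of the 4 the difference was not tested. *Ccl22* had a log2 ratio of 2.83 in selected cells (47 and 268 UMIs) and -1.18 in other gate cells (1507 and 472 UMIs), and 258 of the 268 UMIs lay in 1 cell. *Iigp1*, an interferon-inducible GTPase, had 1.47 (42 and 93 UMIs) and -0.53 (3456 and 1701 UMIs). *Nupr1*, a stress response gene, had 1.18 (48 and 87 UMIs) and -0.13 (1637 and 1058 UMIs), and the desaturase *Scd2* had 1.36 (57 and 117 UMIs) and -0.18 (2185 and 1363 UMIs). *Nupr1* and *Scd2* were in no list and were chosen after their values were seen.

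Sample Tags 3 to 12, which marked no group, held 88 of 109105 tag reads of the selected cells (0.0807%), and 6387 tag reads of all cells (0.0794%). Their source was not tested.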

How the results depend on the processing

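The share of selected cells among gate cells kept its value, within its counting interval, with no UMI of *Cbr2*, *Folr2* and *Fcrls*, with at least 10 UMIs of *Lyz2*, with at least 500 genes, with 90% of tag reads on 1 tag and without the highest Scrublet scores. It moved to 4.54% of telmisartan gate cells with a mitochondrial limit of 10%, to 14.3% (control) and 12.6% (telmisartan) with at least 2 of the 6 genes, to 0.883% and 1.03% with at least 4, and to 0.883% and 1.23% after thinning, which leaves fewer UMIs per cell. Of these settings, the telmisartan share was lower than the control share only with at least 2 genes, and with that limit the shares were 4.42% in control and 4.92% in telmisartan cells after thinning. For the mitochondrial limit the cause was not tested.

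The number of genes at least 2-fold higher and lower between the groups (60 and 25) became 33 and 77 without scaling, since control cells were deeper. It was 109 and 79 for genes with at least 50 UMIs, 31 and 13 with at least 200, and 14 and 7 after thinning, where 785 genes had enough UMIs. The number stayed within 1.5 times its value under the other alternatives, for example 55 and 28 with TMM. It was 64 and 32 with each gene read without the cell of most UMIs in each group, an alternative chosen after seeing the data. These are counts and not shares. Genes with enough UMIs numbered 3638 in the main setting, but 999 with at least 4 of the 6 genes and 7380 with at least 2. A similar count there is thus not a similar share past 2-fold. The genes themselves changed more: with at least 2 of the 6 genes, 29 of the 60 and 8 of the 25 were still past 2-fold, though all kept their sign. Against other gate cells, 352 of 8781 genes were at least 2-fold higher and 1527 lower when at least 4 genes were set against 0.

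Of 2949 values of 227 genes between the groups, 2392 kept within their interval, 550 moved outside it and 7 reversed, counting as reversed a value past 2-fold that changed sign. With at least 4 of the 6 genes, the log2 ratio was -3.87 for *Ccl22*, 0.63 for *Cxcl14*, -0.0078 for *Dusp2*, -0.37 for *Lyz1* and -0.30 for *Nr4a3*. *Ccl22* was -2.06 without the highest Scrublet scores and -1.30 without the cell of most UMIs. Of 607 values against other gate cells, 258 kept, 347 moved and 2 reversed, *Fscn1* (-1.96) and *Lyz1* (-0.37) with at least 4 genes against 0. For these genes the cause was not tested, apart from *Ccl22*, where 1 cell held 258 UMIs. A gene at 0 under an alternative gave no value. Depth limits the gene ratios, since the selected cells number 132 and 126, and 3638 of 27031 genes reached 100 UMIs.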
